A study of Xenopus laevis with 46 samples.

Results

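The genes described here are those whose names in the deposited count tables begin with psm, then a letter from a to g and a digit, which is how most subunits, assembly chaperones and activators of the proteasome are named in Xenopus laevis. The name rule took 85 of the 49281 genes in the tables. X. laevis is an allotetraploid frog, and many genes are kept as a pair of homeologous copies on the long (.L) and short (.S) subgenomes. The 85 genes carry 49 different symbols, 36 of them with both copies, 9 with the .L copy alone and 4 with the .S copy alone. By role, 14 encode the outer alpha ring of the 20S core, 13 its beta ring, 12 the ATPases of the 19S cap, 21 the other subunits of the cap, 11 assembly chaperones, 7 activators or an inhibitor, and 5 beta subunits that replace or resemble those of the standard core. The remaining 2, psmc3ip.L and psme3ip1.S, are named for proteins that bind a proteasome subunit and encode no part of the proteasome. The rule used names and no measured value.

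The proteasome degrades proteins that carry chains of ubiquitin. Its 20S core is a barrel of stacked alpha and beta rings with the proteolytic sites on beta subunits facing the inside. The 19S cap binds the ubiquitin chain, removes it, unfolds the substrate with a ring of ATPases and feeds it into the core. Other activators, among them the PA28 proteins (psme1 to psme3) and PA200 (psme4), open the core without ubiquitin. In vertebrates immunoproteasome subunits (psmb8, psmb9) can replace standard beta subunits, a replacement best known from antigen presentation. An egg supplies both proteasomes and mRNA to the early embryo, and zygotic transcription begins at the mid-blastula transition, shortly before stage 9.

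The samples were 46 RNA sequencing libraries in 18 groups of animal pole explants from wild-type embryos, whose cells are pluripotent in the blastula and become epidermis unless redirected. In one experiment embryos were kept from the 2-cell stage in IBET762 (IBET, which blocks the acetyl-lysine pocket of BET bromodomain proteins), in TSA (trichostatin A, which inhibits histone deacetylases) or in DMSO, with a separate DMSO control for each inhibitor, and explants were collected at stage 9 or stage 13 with 2 libraries per group. In a second experiment explants were uninjected (epidermal by label) or had been reprogrammed to neural crest with Wnt and Chordin (Wnt/Chd), and were collected without treatment at stage 9, or after IBET or DMSO from stage 9 at stage 13 or stage 17, with 3 libraries per group. DMSO groups are called vehicle. Stage 9 explants of the second experiment saw no vehicle, so that stage and vehicle cannot be told apart there. Whether the libraries of a group came from separate clutches is not given in the labels, so the p-values measure the spread between these libraries. In RNA of whole explants, fewer cells of a type and less RNA per cell cannot be told apart.

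Libraries held 12902520 to 32022992 reads counted in genes. Reads in genes made up 72.4 to 82.8% of all tabulated reads in the 14 libraries of stage 9, 71.8 to 77.2% in the 16 vehicle libraries of stages 13 and 17, and 54.3 to 71.0% in the 16 inhibitor libraries of those stages. Summed epidermal markers were 14456 to 43466 CPM (reads of a gene scaled to a library of fixed size) in uninjected vehicle libraries of stages 13 and 17 and 807 to 13355 with IBET. Summed neural crest markers were 821 to 2341 CPM in Wnt/Chd vehicle libraries, 73.9 to 547 with IBET and 11.6 to 27.8 in uninjected vehicle libraries. Pluripotency markers reached 2062 to 4062 CPM with IBET from stage 9 at stage 13, against 396 to 1394 with vehicle. Every list of markers had reads in all of its genes. In Wnt/Chd vehicle library a of stage 13 the epidermal sum was 19379 CPM, and in its group the lowest was 3457. Mesoderm markers summed to 85.0 to 97.2 CPM in the vehicle of the IBET series at stage 13, against 4.17 to 4.54 at its stage 9. At stage 13 they were 0.190 to 1.18 CPM in uninjected vehicle, 0.720 to 9.66 in Wnt/Chd vehicle and 1.70 to 2.72 in TSA series vehicle libraries. The part of these shifts in tissue makeup in the results below was not tested.

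Levels are given as CPM with TMM scaling (a trimmed mean of log ratios between libraries) over all 46 libraries, listed in the order of libraries a, b and c. Where the values of 2 groups follow each other with the word then, the first are those of the earlier stage, of vehicle or of uninjected explants. Each comparison was a quasi-likelihood test of edgeR on the counts, with p-values adjusted by the Benjamini-Hochberg method over all genes that passed a filter on low counts, and a gene is said to have risen or fallen only where the adjusted p was under 0.05. The test is two-sided. Levels of different genes are not compared, since no transcript lengths were at hand. Of the 85 genes, 79 passed the filter in all 17 pairwise comparisons, 2 (psmb9.S and psmg4.L) in some, and 4 in none. The 4 were psmb11.L, the gene of the thymus-specific beta subunit, with 2 reads in 2 libraries, psmb7.2.L with 11 reads in 6 libraries, psmb7.2.S with 21 reads in 9 libraries, and the chaperone copy psmg3.S with 2 reads in 1 library. Counts below are thus counts over the genes that passed.

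Of the comparisons made, those between stage 9 and stage 13, the step from blastula to neurula, called the most proteasome genes. Most genes of the core and of the cap were higher at stage 13 in all 4 series of explants, which have no library in common, while the activators psme3.S and psme4.L were lower. The uninjected and Wnt/Chd series are not independent of each other. Their libraries of the same letter deviated together, with correlations of 0.88 to 0.90 at stage 9 and 0.58 to 0.61 at stage 13. In uninjected explants 61 of 81 genes rose and 4 fell, against 35.9% and 35.4% of all genes tested. Among Wnt/Chd explants 64 of 80 rose and 3 fell, against 30.8% and 31.7%. With the vehicle of the TSA series 61 of 79 rose and 4 fell, against 39% and 39%. With the vehicle of the IBET series 52 of 79 rose and 6 fell, against 36.4% and 37.2%. The share of proteasome genes that rose was thus above that of all genes in each series. The median log2 fold change over the proteasome genes was 0.83, 1.06, 1.30 and 1.57 for the vehicle of the IBET series, the vehicle of the TSA series, uninjected and Wnt/Chd explants, against -0.05, -0.04, -0.03 and -0.09 over all genes tested. A total of 50 genes rose in all 4 series, and 3 fell in all 4, which is 61.7% and 3.70% of the 81 tested in any series, against 18.9% and 20.7% of all genes tested in any.

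How many genes rise at stage 13 depends on how libraries are scaled. The 10 most abundant genes took 2.59 to 4.94% of reads in genes at stage 9 and 7.33 to 11.5% at stage 13. Scaled by library totals alone, the median of all genes moved to -0.65, -0.78, -0.88 and -0.94 in the same order, and 33, 38, 36 and 41 proteasome genes rose while 14, 17, 11 and 6 fell. Relative to the median of all genes the proteasome genes stood 0.87, 1.10, 1.33 and 1.66 higher on the log2 scale with TMM, and 0.88, 1.09, 1.33 and 1.65 with library totals. Without TMM the 85 genes together took 0.364 and 0.384% of reads in genes at stage 9 and 0.377 and 0.384% at stage 13 in the vehicle of the IBET series. The vehicle of the TSA series gave 0.326 and 0.342, then 0.335 and 0.345%. Uninjected explants gave 0.302, 0.305 and 0.300, then 0.320, 0.356 and 0.351%. Wnt/Chd explants gave 0.298, 0.304 and 0.302, then 0.408, 0.413 and 0.412%. The summed levels below are with TMM scaling.

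The alpha ring forms the gate and outer wall of the 20S core. The summed level of its 14 genes was 229.8, 245 and 229 CPM in the 3 uninjected libraries of stage 9 and 618, 634 and 619 CPM at stage 13, and 224, 226 and 235, then 861, 758 and 865 CPM in Wnt/Chd explants. In the vehicle of the IBET series it was 317 and 311 CPM at stage 9 and 572 and 575 CPM at stage 13. In each of the 4 series all libraries of stage 13 were above all libraries of stage 9. Of the 14 genes, 10, 12, 12 and 14 rose in the vehicle of the IBET series, the vehicle of the TSA series, uninjected and Wnt/Chd explants, none fell in any, and the medians were 0.81, 1.01, 1.32 and 1.64 on the log2 scale. The copy psma6.S stood at 4.36 and 5.33 CPM at stage 9 and 41.3 and 43.9 CPM at stage 13 in the vehicle of the IBET series (log2 fold change 3.15 ± 0.19 (SE), adjusted p = 1.6e-05). In the vehicle of the TSA series psma3.L went from 11.8 and 12 to 58.0 and 62.6 CPM (log2 fold change 2.36 ± 0.13 (SE), adjusted p = 2.9e-06). For both genes the gap between stages was wider than the gap between libraries of a group.

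The beta ring carries the proteolytic sites. Its 13 genes summed to 244, 239.8 and 224 CPM in uninjected explants at stage 9 and to 568, 618 and 594 CPM at stage 13, and in Wnt/Chd explants to 235, 234 and 222, then 738, 703 and 745 CPM. The groups of the 2 stages did not overlap. All 13 genes rose in the vehicle of the TSA series, in uninjected and in Wnt/Chd explants, and 12 of 13 in the vehicle of the IBET series, with medians of 0.94, 1.11, 1.47 and 1.67 in the order given above. psmb3.L had the smallest adjusted p of the ring in Wnt/Chd explants, where it rose from 3.58, 3.04 and 2.97 to 54.8, 38.5 and 47.6 CPM (log2 fold change 3.91 ± 0.27 (SE), adjusted p = 6.3e-05). In the vehicle of the IBET series it stood at 5.04 and 5.41 CPM and then at 34.2 and 36.8 CPM (log2 fold change 2.77 ± 0.18 (SE), adjusted p = 2.2e-05).

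The 6 ATPases (psmc1 to psmc6, each with both copies) unfold substrates at the base of the 19S cap. Their summed level was 271, 271 and 269 CPM in uninjected explants at stage 9 and 893, 851 and 874 CPM at stage 13. Of the 12 copies 10, 11, 11 and 11 rose in the 4 series, with medians of 1.48, 1.59, 1.73 and 2.06, and none fell. The exception in all 4 was psmc3.S, whose log2 fold changes ran from -0.11 to 0.30 and did not pass the test. For psmc6.L, the values were 13.6, 9.99 and 11.7 CPM at stage 9 and 99.8, 79.6 and 102 CPM at stage 13 in uninjected explants (log2 fold change 3.08 ± 0.20 (SE), adjusted p = 1.1e-05), and 12.9, 8.34 and 11.2, then 114, 97.1 and 123 CPM in Wnt/Chd explants (log2 fold change 3.39 ± 0.24 (SE), adjusted p = 7e-05). For psmc5.L they were 33.8 and 33.6, then 149 and 162 CPM in the vehicle of the IBET series (log2 fold change 2.22 ± 0.13 (SE), adjusted p = 1.5e-05). In uninjected explants psmc5.L reached 144, 129 and 137 CPM from 17.7, 24.6 and 22.4 CPM (log2 fold change 2.75 ± 0.18 (SE), adjusted p = 1.2e-05).

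The other subunits of the cap include the ubiquitin receptor psmd4, the deubiquitinase psmd14 and scaffold subunits. The 21 genes summed to 809.9, 804 and 814 CPM in uninjected explants at stage 9 and 1645, 1749 and 1612 CPM at stage 13. In the 4 series 14, 18, 18 and 18 of them rose, with medians of 0.81, 1.15, 1.0 and 1.25, and the only fall was psmd12.S in the vehicle of the IBET series (log2 fold change -0.34, adjusted p = 0.04). The scaffold subunit copy psmd6.L went from 20.3 and 22.0 to 117 and 113 CPM in the vehicle of the TSA series (log2 fold change 2.46 ± 0.11 (SE), adjusted p = 1.5e-06). It went from 22.5, 21.5 and 19.1 to 148, 149.6 and 119.6 CPM in uninjected explants (log2 fold change 2.81 ± 0.18 (SE), adjusted p = 9.4e-06) and from 21.7, 17.7 and 18.8 to 201, 183 and 168 CPM in Wnt/Chd explants (log2 fold change 3.28 ± 0.19 (SE), adjusted p = 4.5e-05). Not every subunit of the cap followed. psmd8.S passed the test in none of the 4 series, with log2 fold changes from -0.25 to 0.31, and psmd12.L passed it in 1.

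Assembly chaperones build the rings and the base of the cap and are not part of the finished particle. psmg1.L, a chaperone of the alpha ring, had the smallest adjusted p of all proteasome genes in uninjected and in Wnt/Chd explants. It stood at 2.12, 2.39 and 1.498 CPM in uninjected libraries of stage 9 and at 54.0, 56.4 and 52.2 CPM at stage 13 (log2 fold change 4.84 ± 0.25 (SE), adjusted p = 5.1e-06). Wnt/Chd explants held 2.02, 2.90 and 2.36, then 81.3, 76.1 and 90.5 CPM (log2 fold change 5.12 ± 0.26 (SE), adjusted p = 3.6e-05). In embryos kept in vehicle from the 2-cell stage the stage 9 level was 10.03 and 12.3 CPM in the IBET series and 5.64 and 7.12 CPM in the TSA series, and the log2 fold changes were 2.72 ± 0.17 and 3.08 ± 0.16 (SE). These stage 9 explants were not tested against the untreated ones, which belong to another experiment. psmg3.L and psmg4.S, chaperones that act in early core assembly, also rose in all 4 series, by 2.72 to 3.53 and 1.43 to 2.73 on the log2 scale, as did psmg2.L. Of the chaperones of the cap base, psmd10.L and both copies of psmd9 passed in no series, psmd10.S fell in the vehicle of the IBET series (log2 fold change -0.80, adjusted p = 0.012), and psmd5.L rose in 3 series but not in that one.

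Activators of the core were among the few genes to go the other way. psme4.L, which encodes PA200, stood at 240.3, 219 and 216 CPM in uninjected explants of stage 9 and 159, 138 and 122 CPM at stage 13 (log2 fold change -0.60 ± 0.15 (SE), adjusted p = 0.0077). In the vehicle of the IBET series it stood at 282 and 318, then 120.4 and 123 CPM (log2 fold change -1.29 ± 0.12 (SE), adjusted p = 8e-05), and in the vehicle of the TSA series at 254 and 250.2, then 132 and 108 CPM (log2 fold change -1.06 ± 0.12 (SE), adjusted p = 0.00011). All libraries of stage 13 lay below those of stage 9 in these series. The fall in Wnt/Chd explants was from 234, 217 and 229 to 166, 129 and 100.2 CPM (log2 fold change -0.75 ± 0.22 (SE), adjusted p = 0.018, 0.054 to 0.067 without any one of stage 9 a/b/c and stage 13 b). psme3.S, a copy of the gene of PA28 gamma, a nuclear activator, fell in all 4 series by 0.91 to 1.5 on the log2 scale. Its other copy psme3.L fell in 3 and did not pass in Wnt/Chd explants, at 232, 219 and 235 and then 232, 214 and 217 CPM (log2 fold change -0.02 ± 0.14 (SE), adjusted p = 0.91). psmf1.L, which encodes the inhibitor PI31, rose in all 4 series, by 1.2 to 1.57. psme1 and psme2, whose products form the other PA28 ring, passed in no series. The third gene to fall in all 4, psme3ip1.S, encodes a protein that binds PA28 gamma. For Wnt/Chd explants none of the 3 falls passed with each library left out in turn, with adjusted p of up to 0.11 for psme3.S and 0.063 for psme3ip1.S.

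**Figure D1:**
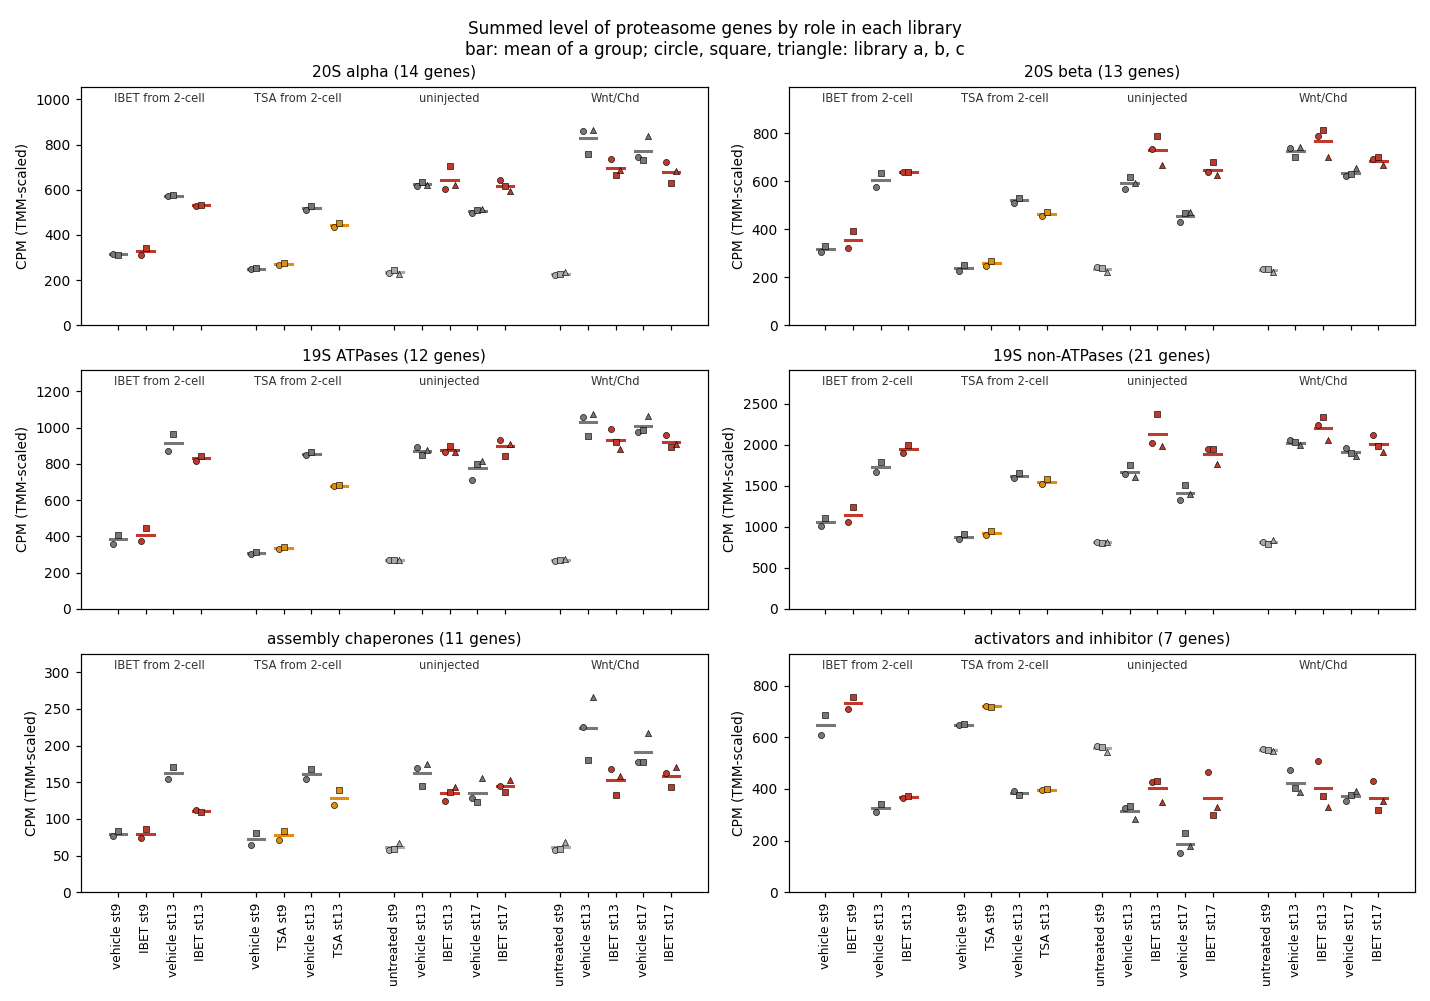
Summed TMM-scaled CPM of proteasome genes by role (y axes, each from 0) in the 46 libraries, by group along the x axis; bars are group means and each symbol is 1 library (circle a, square b, triangle c), in grey for untreated or vehicle, red for IBET and orange for TSA. Under this scaling core and cap genes are low in every group of stage 9 and higher at stages 13 and 17. The activators are highest at stage 9, with 567, 563 and 543 CPM in uninjected explants and 327, 333 and 285 CPM at stage 13.

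The homeologous copies of a subunit did not always rise together. The ratio of .L to .S reads within a library does not depend on how libraries are scaled, and it was tested with limma on its log2 over every homeologous pair in the genome that passed the filter, a test added after the data had been seen. In uninjected explants the ratio changed between stages 9 and 13 for 13 of 34 proteasome pairs, against 58% of all pairs. It changed for 10 of 34 in Wnt/Chd explants (all pairs 49.8%), 12 of 33 in the vehicle of the TSA series (all pairs 66.4%) and 13 of 33 in the vehicle of the IBET series (all pairs 60.1%). The share of changed pairs was thus below that of all pairs in each series. The median size of the change, 0.45, 0.44, 0.60 and 0.55 on the log2 scale for the vehicle of the IBET series, the vehicle of the TSA series, uninjected and Wnt/Chd explants, was also below the 0.96, 0.99, 1.11 and 1.05 of all pairs. Reads that fit both copies could be lost or split in counting, which was not tested.

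The copy with most reads changed for a few pairs. The .L copy of psma6, an alpha subunit, held 87.5 to 93.1% at stage 9 and 37.5 to 41.0% at stage 13 of the reads of both copies in uninjected explants (difference of log2 ratios -3.86 ± 0.31 (SE), adjusted p = 3.4e-05), and 77.2 to 88.8% at stage 9 and 31.3 to 40.2% at stage 13 in the vehicle of the IBET series (difference of log2 ratios -3.21 ± 0.42 (SE), adjusted p = 0.00074). The .L copy of psma1, another alpha subunit, held 77.7 to 82.8% at stage 9 and 38.1 to 45.0% at stage 13 in uninjected explants (difference of log2 ratios -2.54 ± 0.27 (SE), adjusted p = 0.00011). In both pairs the copy that made up most reads at stage 9 was the minor one at stage 13, in all 4 series. The level of psma6.L itself was 26.3, 27.2 and 22.8 CPM at stage 9 and 26.3, 28.6 and 24.2 CPM at stage 13 (log2 fold change 0.13 ± 0.18 (SE), adjusted p = 0.53), while psma6.S went from 3.17, 3.89 and 1.68 to 43.8, 41.2 and 40.1 CPM (log2 fold change 3.92 ± 0.34 (SE), adjusted p = 3.8e-05). Under library totals alone the change of psma6.L turned to -0.72. In other pairs the .L copy gained. For the ATPase psmc3 it held 38.4 to 42.1% at stage 9 and 68.7 to 72.7% at stage 13 (difference of log2 ratios 1.82 ± 0.16 (SE), adjusted p = 4.6e-05). For the cap subunit psmd6 it held 54.8 to 58.1% at stage 9 and 83.7 to 86.0% at stage 13 (difference of log2 ratios 2.17 ± 0.19 (SE), adjusted p = 4.3e-05), and for the beta subunit psmb7 35.6 to 38.1% at stage 9 and 55.1 to 59.6% at stage 13 (difference of log2 ratios 1.22 ± 0.19 (SE), adjusted p = 0.00081). The pairs psma1, psma6, psma7, psmb7, psmc3, psmd6 and psmd11 passed in all 4 series, each in the same direction. The share of all pairs that passed in all 4 is not given here. In each single series the share of proteasome pairs was below that of all pairs.

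**Figure D2:**
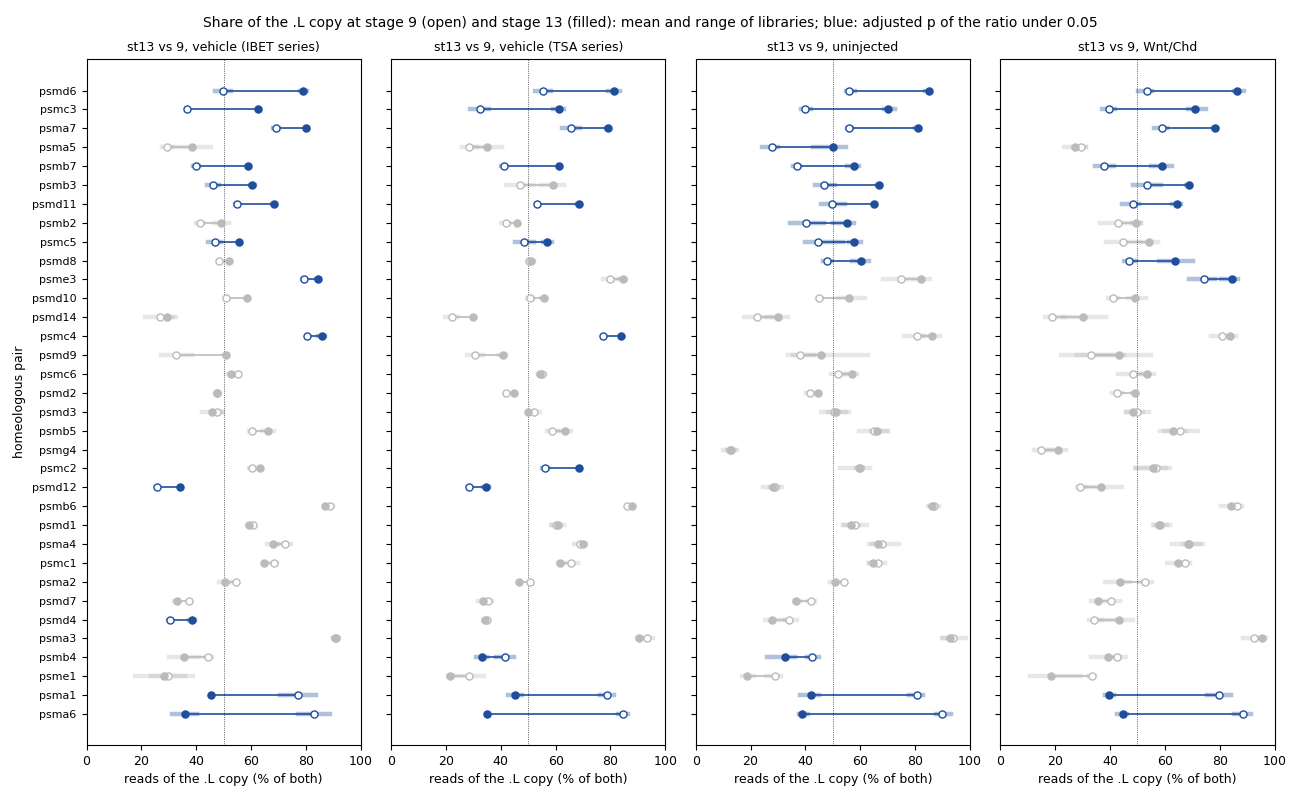
Share of reads of the .L copy among the reads of both copies (x axis, percent) for each homeologous pair of proteasome-named genes (y axis) at stage 9 (open circles) and stage 13 (filled circles), in 4 series of explants. Circles are means of the libraries of a group, thick bands run from the lowest to the highest library, and blue marks an adjusted p of the ratio under 0.05; psma1 and psma6 move from above 50% to below it, and psmc3 and psmb7 from below 50% to above it.

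No proteasome gene was called at stage 9 by this test with IBET or TSA from the 2-cell stage. With IBET 0 of 79 genes passed, against 2.37% of all genes tested, 1 had an unadjusted p under 0.05, and DESeq2 called 1. With TSA 0 of 79 passed, against 2.02%, 1 had an unadjusted p under 0.05, and DESeq2 called 0. The medians were 0.03 and 0.03 on the log2 scale. psmg1.L, with 10.03 and 12.3 CPM with vehicle and 5.03 and 6.004 CPM with IBET, and with 5.64 and 7.12, then 2.37 and 4.28 CPM in the TSA series, did not pass in either (log2 fold change -1.09 ± 0.21 and -1.01 ± 0.35 SE, adjusted p = 0.084 and 0.39). Its treated libraries lay below its vehicle libraries in both series, and the share of all genes that did so is not given here. When the letter of the library was a block, 2 genes passed with IBET and 2 with TSA, psmg1.L among them in both. What a letter stands for is not given in the labels. The test of the difference between the 2 effects found 0 of 79 genes, against 0.963% of all genes, with 1 at an unadjusted p under 0.05 and 0 called by DESeq2.

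At stage 13 both inhibitors moved proteasome genes in both directions. With IBET from the 2-cell stage on, 16 of 79 rose and 20 fell, against 27.4% and 29.3% of all genes. In the same libraries summed epidermal markers stood at 14835 to 18839 CPM with vehicle and 3780.4 to 4286 with IBET, markers of multiciliated cells at 721 to 858 CPM with vehicle and 3.03 to 3.26, of ionocytes at 96.7 to 163 CPM with vehicle and 15.4 to 16.8, of neural progenitors at 50.6 to 79.9 CPM with vehicle and 959.6 to 1059 and of the pluripotent blastula at 1224 to 1629 CPM with vehicle and 3606 to 3768. Mesoderm markers summed to 85.0 to 97.2 CPM with vehicle and 12.3 to 23.6 with IBET. Those of neural crest were 27.1 to 42.2 CPM with vehicle and 124 to 178 with IBET, and those of endoderm 4.01 to 7.09 and 16.4 to 20.7. The part of these marker shifts in the result was not tested. The share of genes called in either direction was 45.6% of the proteasome genes and 56.7% of all genes. The median was 0.02, and over all genes 0.03. Of the 36 genes called, 13 were called with each library left out in turn, and 15 were called in all without IBET library b. By role, 2 alpha genes rose and 5 fell, 1 beta gene rose and 2 fell, 0 ATPases rose and 4 fell, 7 other cap genes rose and 3 fell, 3 chaperones rose and 5 fell, and 2 activators rose and 1 fell. psmg4.S, a chaperone of the alpha ring, stood at 5.10 and 5.92 CPM with vehicle (74 and 87 reads) and 1.40 and 1.09 CPM with IBET (18 and 22 reads) (log2 fold change -2.15 ± 0.33 (SE), adjusted p = 0.0021). The ATPase copy psmc2.L stood at 33.1 and 41.6, then 16.4 and 17.5 CPM (log2 fold change -1.13 ± 0.18 (SE), adjusted p = 0.0023). The chaperone psmd5.L stood at 19.4 and 20.3, then 8.69 and 6.56 CPM (log2 fold change -1.38 ± 0.22 (SE), adjusted p = 0.0023). For these 3 genes both IBET libraries lay below both vehicle libraries. Among genes that rose, the large scaffold subunit copy psmd2.L stood at 88.8 and 105 CPM with vehicle and 148 and 177 CPM with IBET (log2 fold change 0.76 ± 0.15 (SE), adjusted p = 0.0056), and psma2.L at 70.0 and 67.1, then 98.1 and 119 CPM (log2 fold change 0.67 ± 0.15 (SE), adjusted p = 0.0082, 0.05 without IBET library b). psmd6 split by copy, psmd6.L falling from 116 and 136 to 69.0 and 71.0 CPM (log2 fold change -0.84 ± 0.14 (SE), adjusted p = 0.0026) and psmd6.S rising from 32.9 and 33.6 to 52.7 and 54.1 CPM (log2 fold change 0.69 ± 0.14 (SE), adjusted p = 0.0056).

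With TSA at stage 13 falls outnumbered rises under TMM scaling: 13 of 81 rose and 29 fell, against 36.9% and 35.8% of all genes. Here summed epidermal markers stood at 16759.9 to 17980.3 CPM with vehicle and 1172 to 1408 with TSA, markers of multiciliated cells at 893 to 894 CPM with vehicle and 37.5 to 50, of ionocytes at 190.4 to 259 CPM with vehicle and 11.4 to 16.2, of neural progenitors at 35.3 to 38.1 CPM with vehicle and 254 to 263 and of the pluripotent blastula at 835 to 903 CPM with vehicle and 1373 to 1706. Mesoderm markers summed to 1.70 to 2.72 CPM with vehicle and 43.4 to 55.7 with TSA. Those of endoderm were 0.647 to 0.921 and 35.9 to 43.6 CPM, and those of neural crest 14.1 to 15.3 and 104 to 111 CPM. Their part in the result was not tested. The balance of rises and falls turned with the scaling. With library totals alone 46 rose and 5 fell, and the median of all genes moved from 0.12 to 0.71. Relative to that median the proteasome genes stood at -0.20 with TMM and -0.21 with library totals. 24 of the 42 genes were called with each library left out in turn. The cap subunit copy psmd11.S stood at 66.7 and 69.9 CPM with vehicle and 21.6 and 23.6 CPM with TSA (log2 fold change -1.58 ± 0.12 (SE), adjusted p = 1.1e-05). psmd6.L stood at 117 and 113, then 45.4 and 46.7 CPM (log2 fold change -1.31 ± 0.10 (SE), adjusted p = 1.3e-05), and psmg1.L at 51.2 and 55.7, then 16.3 and 21.8 CPM (log2 fold change -1.49 ± 0.16 (SE), adjusted p = 7.9e-05). The alpha subunit copy psma7.L stood at 69.9 and 73.5, then 31.0 and 33.7 CPM (log2 fold change -1.14 ± 0.11 (SE), adjusted p = 5e-05). All 4 were lower in both TSA libraries. Among rises, psmd12.L stood at 47.2 and 44.7, then 74.0 and 76.6 CPM (log2 fold change 0.72 ± 0.10 (SE), adjusted p = 0.00038) and the chaperone psmd9.S at 2.95 and 3.64, then 7.25 and 7.22 CPM (log2 fold change 1.15 ± 0.23 (SE), adjusted p = 0.0024). The ATPases gave 6 falls of 12 and no rise, and the beta genes 2 rises and 6 falls of 13.

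The effects of IBET and TSA at stage 13 were tested against each other as an interaction, each with its own vehicle. The difference passed for 10 of 81 proteasome genes, against 26.4% of all genes. The IBET effect was the lower one for 7 of them, among them both copies of psmc2 (difference -0.79 ± 0.22 for psmc2.L and -1.13 ± 0.30 for psmc2.S, SE, adjusted p = 0.026 and 0.019) and psmg4.S (-1.16 ± 0.36, adjusted p = 0.039). With TSA psmg4.S stood at 4.06 and 5.08 CPM against 9.43 and 9.26 CPM with vehicle, a smaller fall that also passed (log2 fold change -1.03 ± 0.21 (SE), adjusted p = 0.0025). psma3.S had a difference of -1.31 ± 0.33 (adjusted p = 0.015), with 5.85 and 7.69 CPM in vehicle and 4.19 and 4.59 CPM in IBET libraries, and 6.64 and 6.40, then 11.3 and 9.12 CPM in the TSA series. These differences rest on 2 libraries per group. Without either vehicle library of the IBET series or IBET library a the number that passed was 6, without IBET library b 3, without either vehicle library of the TSA series 2, without TSA library a 5 and without TSA library b 1. With library totals alone 19 passed, 0 of them higher, where the median difference of all genes moved from 0.01 to -0.45.

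**Figure D3:**
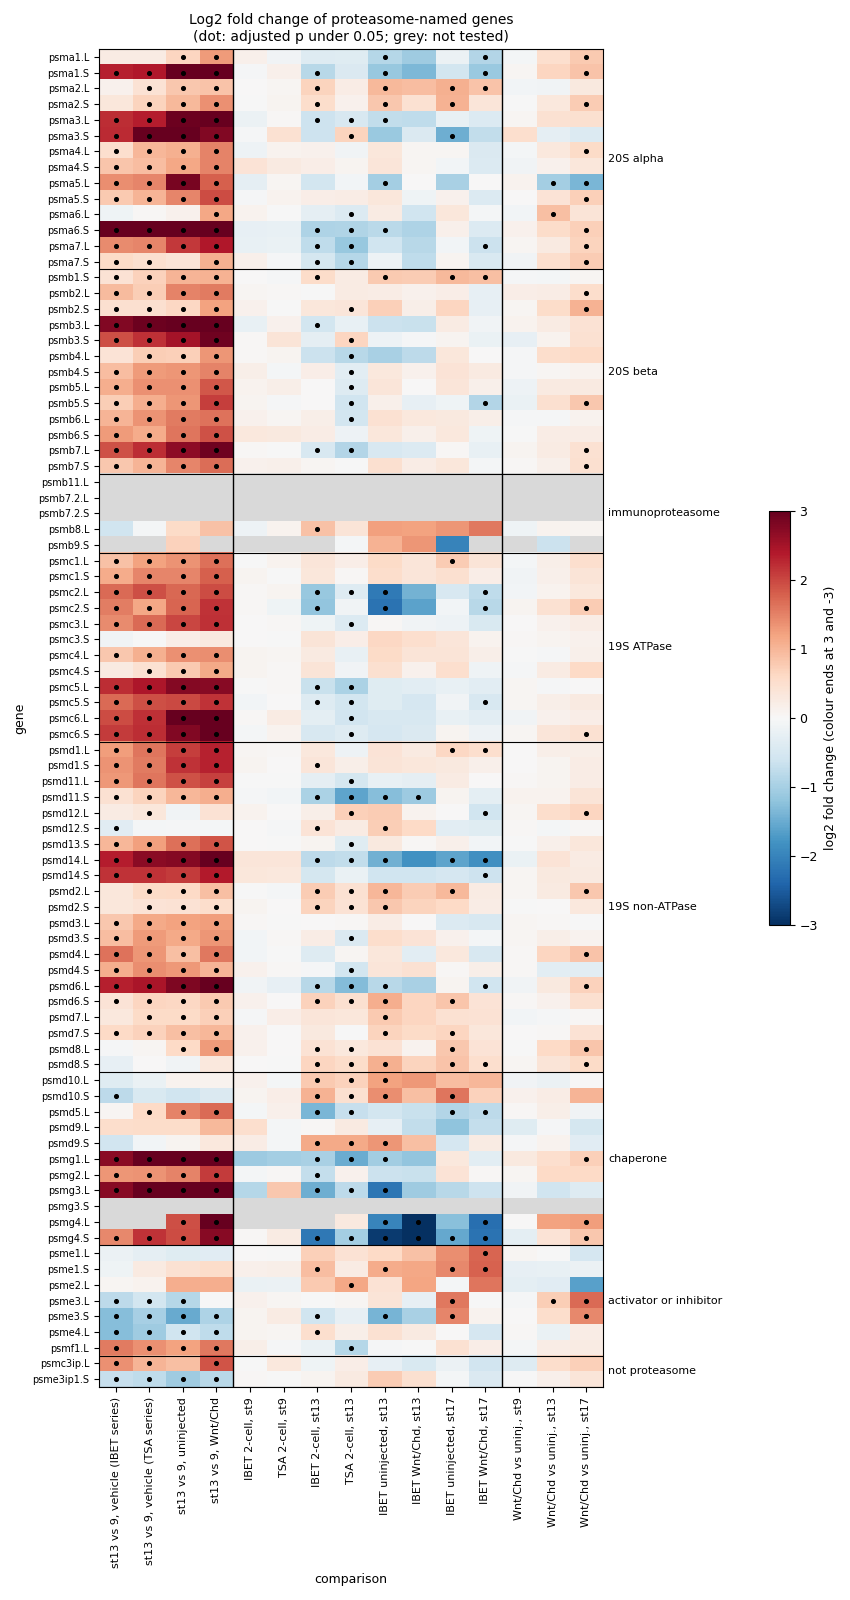
Log2 fold change (colour, ending at 3 and -3) of each of the 85 proteasome-named genes (rows, grouped by role) in 15 comparisons (columns), with a dot where the adjusted p was under 0.05 and grey where a gene did not pass the filter on low counts. Most core and cap genes are red in the 4 columns of stage 13 against stage 9, the columns of stage 9 inhibitors hold no dot, and psmg4.S is blue in all 6 inhibitor columns of stages 13 and 17.

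IBET given from stage 9, after the onset of zygotic transcription, also moved proteasome genes in both directions. In uninjected explants at stage 13, 14 of 81 rose and 15 fell, against 22.9% and 25.2% of all genes, with a median of 0.33 (all genes 0.05). In these libraries summed epidermal markers stood at 14456 to 27896 CPM with vehicle and 807 to 2448 with IBET, markers of multiciliated cells at 1025 to 1428 CPM with vehicle and 1.10 to 2.56, of ionocytes at 287 to 334 CPM with vehicle and 0 to 8.19, of neural progenitors at 29.1 to 54.0 CPM with vehicle and 1120.1 to 1332 and of the pluripotent blastula at 456 to 984 CPM with vehicle and 2537 to 4062. Their part in the result was not tested. The other cap genes gave 7 rises and 3 falls, the alpha genes 2 and 5, the chaperones 3 and 4, the beta genes 1 and 0, the ATPases 0 and 2, and the activators 1 and 1. Without vehicle library a, vehicle library c or IBET library c the number called was 15, 17 and 17, and 13 genes were called with each library left out. With the letter of the library as a block 39 genes passed, 21 higher and 18 lower. psmg4.S stood at 11.5, 7.22 and 6.84 CPM with vehicle and 0.710, 1.29 and 1.43 CPM with IBET (log2 fold change -2.87 ± 0.44 (SE), adjusted p = 0.0013). psmc2.S stood at 27.8, 22.0 and 21.7, then 5.96, 6.51 and 2.92 CPM (log2 fold change -2.22 ± 0.38 (SE), adjusted p = 0.002), and psmc2.L at 41.8, 34.3 and 30.4, then 12.43, 8.84 and 3.33 CPM (log2 fold change -2.12 ± 0.46 (SE), adjusted p = 0.006). All 3 were lower in every IBET library than in every vehicle library. The chaperone psmg3.L stood at 7.17, 6.19 and 8.68, then 1.988, 0.798 and 2.10 CPM (log2 fold change -2.17 ± 0.45 (SE), adjusted p = 0.005) and psmd11.S at 88.4, 90.7 and 81.6, then 37.4, 38.1 and 33.0 CPM (log2 fold change -1.27 ± 0.23 (SE), adjusted p = 0.0027). Among rises, psmd2.L stood at 71.2, 82.5 and 72.2, then 148, 157 and 146 CPM (log2 fold change 0.99 ± 0.22 (SE), adjusted p = 0.0069), and psmd8.S, another cap subunit, at 43.7, 60.8 and 68.9, then 111, 135 and 121 CPM (log2 fold change 1.07 ± 0.27 (SE), adjusted p = 0.011). psmd6 again split by copy, psmd6.S rising (log2 fold change 1.08 ± 0.25 (SE), adjusted p = 0.0081) and psmd6.L falling (log2 fold change -0.82 ± 0.28 (SE), adjusted p = 0.037, 0.053 to 0.14 without any one of vehicle a/b/c and IBET a/c). The vehicle libraries of stage 13 here are also those of the comparison with stage 9. Side by side, psmg4.S, psmc2.L and psmd14.L had log2 fold changes of 1.95, 1.71 and 2.75 from stage 9 to stage 13 with vehicle, and -2.87, -2.12 and -1.45 with IBET against vehicle.

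In Wnt/Chd explants at stage 13 IBET lowered 3 genes of 81 and raised none, against 15.3% of all genes called in either direction. The summed markers of neural crest stood at 821 to 1198 CPM with vehicle and 73.9 to 154 with IBET and those of neural progenitors at 263 to 981 CPM with vehicle and 1375 to 2381, and their part in the result was not tested. The genes that fell were psmg4.L, at 4.11, 2.25 and 2.73 CPM with vehicle and 0.416, 0.190 and 0.385 CPM with IBET (log2 fold change -3.14 ± 0.60 (SE), adjusted p = 0.015, 0.073 to 0.075 without any one of IBET b/c), psmg4.S, at 19.5, 7.10 and 9.92, then 2.495, 0.634 and 1.32 CPM (log2 fold change -3.02 ± 0.64 (SE), adjusted p = 0.021, 0.075 to 0.092 without any one of IBET b/c), and psmd11.S, at 98.7, 101 and 105, then 63.1, 39.8 and 38.1 CPM (log2 fold change -1.09 ± 0.31 (SE), adjusted p = 0.047, 0.082 to 0.18 without any one of vehicle a/b/c and IBET b/c). With the letter of the library as a block 19 genes passed, 6 higher and 13 lower. IBET library a stood apart in this group. For psmc2.L it held 33.0 CPM, libraries b and c 6.22 and 6.39 CPM, and the vehicle libraries 56.1, 34.4 and 31.5 CPM, and psmc2.L did not pass (log2 fold change -1.42 ± 0.67 (SE), adjusted p = 0.16, 0.031 with the letter as a block). Without IBET library a 20 proteasome genes were called, and without IBET library b or IBET library c 0. The test of the difference between the IBET effects in Wnt/Chd and uninjected explants found 0 of 81 genes, against 2.24% of all genes, with 1 at an unadjusted p under 0.05 and 1 called by DESeq2.

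At stage 17 rises with IBET outnumbered falls in uninjected explants, and falls outnumbered rises in Wnt/Chd explants. Each share was below that of all genes. The test of the difference between the 2 IBET effects passed for 3 of 81 genes, against 12.9% of all genes. In uninjected explants 14 of 81 rose and 4 fell, against 22% and 25.7% of all genes, and the median was 0.15 (all genes -0.01). In Wnt/Chd explants 6 of 80 rose and 14 fell, against 24.4% and 25.8%, and the median was -0.12 (all genes -0.01). With the letter as a block 19 genes passed in uninjected explants, 14 higher and 5 lower, and 31 in Wnt/Chd explants, 10 higher and 21 lower. Without uninjected vehicle libraries a, b or c or IBET library c the uninjected count of 18 went to 7, 11, 9 and 11, and without Wnt/Chd IBET libraries b or c the Wnt/Chd count of 20 went to 13 and 10. Summed markers of neural progenitors were 9.07 to 13.3 CPM with vehicle and 418 to 1569 with IBET in uninjected explants of stage 17 and 125 to 343 CPM with vehicle and 1654 to 2491 in Wnt/Chd explants. Those of epidermis were 26249.5 to 43466 CPM with vehicle and 2298 to 13355 and those of neural crest in Wnt/Chd explants 1736 to 2341 CPM with vehicle and 285 to 547. Their part in the result was not tested. The deubiquitinase copy psmd14.L fell in both, from 28.2, 21.9 and 23.9 to 11, 5.68 and 10.5 CPM in uninjected (log2 fold change -1.58 ± 0.31 (SE), adjusted p = 0.0039) and from 33.7, 28.0 and 32.8 to 12.5, 5.39 and 9.75 CPM in Wnt/Chd explants (log2 fold change -1.84 ± 0.29 (SE), adjusted p = 0.0016). psmg4.S went from 11.5, 7.72 and 9.32 to 5.72, 1.58 and 3.60 CPM (log2 fold change -1.53 ± 0.46 (SE), adjusted p = 0.025, 0.061 to 0.08 without any one of vehicle a/c and IBET c) and from 18.1, 15.04 and 20.5 to 5.43, 2.72 and 3.92 CPM (log2 fold change -2.20 ± 0.30 (SE), adjusted p = 0.00078). The falls of psmd14.L passed with each library left out. By this stage psmc2.L with IBET overlapped its vehicle libraries in uninjected explants, at 52.5, 16.9 and 30.1 against 38.8, 43.5 and 44.2 CPM (log2 fold change -0.49 ± 0.36 (SE), adjusted p = 0.3). The rises included psma2.L, at 42.2, 41.5 and 45.7, then 78.5, 121 and 94.9 CPM in uninjected (log2 fold change 1.07 ± 0.26 (SE), adjusted p = 0.0099) and 51.4, 54.6 and 64.0, then 88.9, 109 and 116 CPM in Wnt/Chd explants (log2 fold change 0.85 ± 0.20 (SE), adjusted p = 0.0091), and psmb1.S in Wnt/Chd explants, at 62.8, 70.2 and 74.5, then 127, 141 and 132 CPM (log2 fold change 0.90 ± 0.17 (SE), adjusted p = 0.0037).

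Set side by side, the 5 IBET comparisons of stages 13 and 17, which share no library with each other, held 23 genes that rose in at least 1 and 27 that fell in at least 1, while 1 did both and 36 passed in none, 4 of them never tested. The comparisons of the second experiment are not independent of each other. Vehicle libraries of the same letter deviated together between uninjected and Wnt/Chd explants, with correlations of 0.58 to 0.61 at stage 13 and 0.47 to 0.54 at stage 17. Of the 81 proteasome genes tested in any of the 5, 28.4% rose, 33.3% fell and 39.5% passed in none, against 39.8%, 44.0% and 21.2% of all genes tested in any. The share called was thus below that of all genes in either direction. In all 5 comparisons 1.23% of the 81 fell and 0% rose, against 3.28% and 3.16% of all genes. Shares of all genes for calls in 3 or 4 of the 5 are not given here. The one that did both was psme3.S. psmg4.S fell in 5 of 5, by 1.53 to 3.02 on the log2 scale, and psmd14.L in 4, with a value of -1.81 ± 0.62 (SE) in the other, Wnt/Chd explants of stage 13. psma1.S, psmc2.L, psmc2.S, psmd5.L, psmd6.L and psmd11.S fell in 3 each, and so did psmg4.L, which passed the filter in 4. psma2.L, psmb1.S, psmd8.S and psme1.S rose in 4 and psma2.S, psmd2.L, psmd6.S and psmd10.S in 3. The other homeologous copies were not always called. psmd14.S passed in 1 but was lower in all 5, with log2 fold changes of -0.62 to -0.50. psmd11.L passed in 0, with -0.28 to 0.24. The test of the ratio of copies is not given here for these pairs. Members of one complex, and of one ring, were thus called in opposite directions in the same libraries, in each direction at a lower share than all genes. With TSA at stage 13 and TMM scaling psmg4.S, psmd14.L, psmd5.L, psmd6.L and psmd11.S fell too, and psmd2.L, psmd6.S, psmd8.S and psmd10.S rose. psmc2.L fell with TMM (log2 fold change -0.38) but not with library totals alone (0.22). Most falls of proteasome genes with TSA were not called with library totals alone, so the falls named here hold for TMM scaling.

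**Figure D4:**
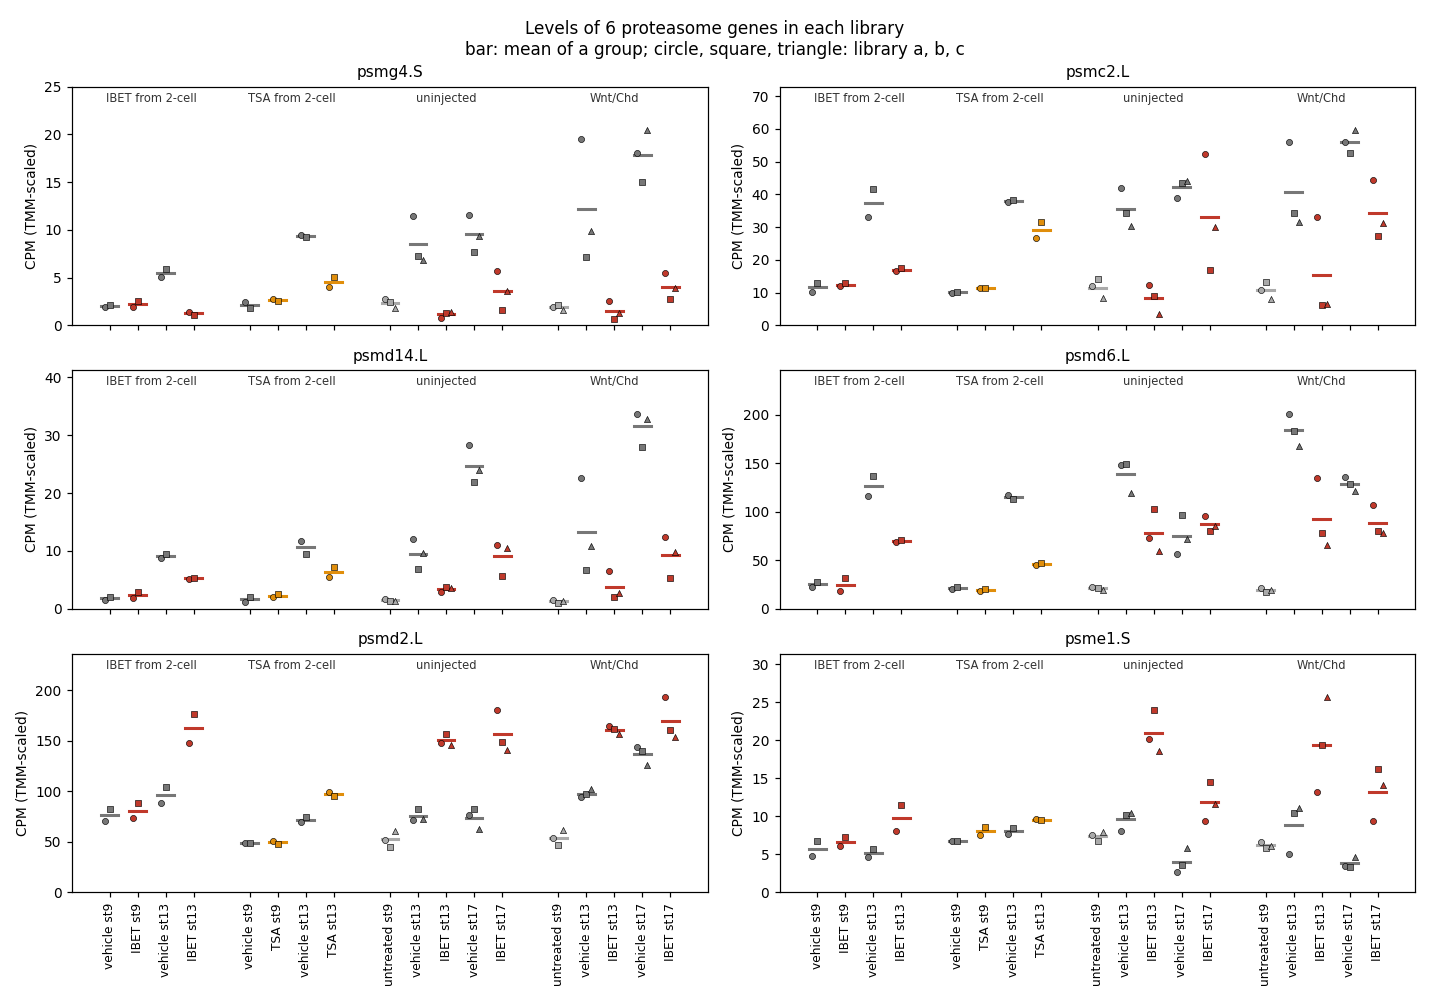
TMM-scaled CPM (y axes, each from 0) of 6 proteasome genes in the 46 libraries, by group along the x axis, with group means as bars and 1 symbol per library (circle a, square b, triangle c) in grey for untreated or vehicle, red for IBET and orange for TSA. psmg4.S, psmc2.L, psmd14.L and psmd6.L are higher at stage 13 than at stage 9 with vehicle; psmd2.L is higher with IBET than with vehicle at stage 13, at 148, 157 and 146 against 71.2, 82.5 and 72.2 CPM in uninjected explants.

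Between Wnt/Chd and uninjected explants no proteasome gene was called at stage 9 by this test. Those that passed it at stage 17 were mostly higher in Wnt/Chd explants. Both groups were blastula explants at stage 9, so the comparison there is not one of neural crest with epidermis. At stage 9, 0 of 80 passed (all genes 0.0244%), with 0 at an unadjusted p under 0.05 and 0 called by DESeq2. At stage 13, 2 were higher and 1 lower in Wnt/Chd explants of 81 (all genes 12%), and 7 passed with the letter as a block, 6 of them higher. None of the 3 passed with every library left out in turn, and the count was 1 without Wnt/Chd library a and 0 without any other library. At stage 17, 26 of 80 were higher and 1 lower in Wnt/Chd explants, against 18.9% and 22.3% of all genes. The median was 0.37, and over all genes 0.01. With the letter as a block 41 passed, 39 of them higher, and with library totals alone 48 were higher and 1 lower, where the median of all genes was 0.24. Leaving out uninjected library c or Wnt/Chd libraries a, b or c gave 15, 17, 16 and 16, and 12 genes, all higher, passed with each library left out. The higher genes included 8 of 14 alpha, 5 of 13 beta, 2 of 12 ATPase and 6 of 21 other cap genes, 3 chaperones and 2 activator copies. The beta subunit copy psmb2.S stood at 21.2, 19.4 and 23.6 CPM in uninjected and 47.0, 42.8 and 51.7 CPM in Wnt/Chd explants (log2 fold change 1.04 ± 0.17 (SE), adjusted p = 0.0028). psma1.S stood at 28.5, 25.9 and 29.4, then 59.2, 47.1 and 55.5 CPM (log2 fold change 0.85 ± 0.17 (SE), adjusted p = 0.0054) and psmd8.L at 51.7, 63.1 and 59.2, then 103, 112 and 116 CPM (log2 fold change 0.83 ± 0.16 (SE), adjusted p = 0.0054). No library of the 2 groups overlapped for these genes. The exception was the alpha subunit copy psma5.L, at 44.5, 40.0 and 21.1, then 18.5, 14.5 and 10.6 CPM (log2 fold change -1.37 ± 0.33 (SE), adjusted p = 0.013, 0.051 without Wnt/Chd library c), whose other copy psma5.S was higher in Wnt/Chd explants (log2 fold change 0.71 ± 0.15 (SE), adjusted p = 0.008). The .L copy held 33.8 to 49.8% of psma5 reads in uninjected and 11.6 to 20.4% in Wnt/Chd explants (difference of log2 ratios -2.05 ± 0.33 (SE), adjusted p = 0.0036).

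From stage 13 to stage 17 with vehicle, 4 of 81 genes rose and 15 fell in uninjected explants, against 19.7% and 18.1% of all genes, with a median of -0.22 (all genes 0.02). With the letter as a block 6 rose and 25 fell. Without the block the count of 19 moved with single libraries. It went to 2, 4, 4, 9 and 6 without vehicle libraries b or c of stage 13, or a, b or c of stage 17. No library was left out of the fit with the block. With library totals alone 5 rose and 7 fell. In Wnt/Chd explants 1 of 80 passed, psmd12.L, a rise (all genes 13.7%), 11 passed with the letter as a block, 13 without vehicle library a of stage 13, and 0 without any other library. With library totals alone 4 rose and 0 fell in Wnt/Chd explants, where the median of all genes moved from 0.01 to 0.25. psmd14.L stood at 11.99, 6.84 and 9.57 CPM at stage 13 and 28.2, 21.9 and 23.9 CPM at stage 17 in uninjected explants (log2 fold change 1.37 ± 0.27 (SE), adjusted p = 0.0094), and these groups did not overlap. psmc3.S, the ATPase copy that did not pass between stages 9 and 13, stood at 43.0, 52.9 and 55.2, then 22.8, 28.0 and 25.97 CPM (log2 fold change -1.0 ± 0.21 (SE), adjusted p = 0.011). These vehicle libraries are also those of the IBET comparisons.

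The activator psme3 stood out at stage 17. In uninjected explants with vehicle psme3.L fell from 116, 137 and 115 CPM at stage 13 to 34.8, 72.8 and 58.1 CPM at stage 17 (log2 fold change -1.18 ± 0.28 (SE), adjusted p = 0.017, 0.051 to 0.052 without any one of stage 13 b/c). With IBET it stood at 238, 143 and 165 CPM at stage 17, above every vehicle library (log2 fold change 1.59 ± 0.33 (SE), adjusted p = 0.0051). In Wnt/Chd explants it stood at 168, 187 and 219 CPM with vehicle and 228, 165 and 196 CPM with IBET (log2 fold change -0.01 ± 0.18 (SE), adjusted p = 0.96). The 3 uninjected vehicle libraries of stage 17 were the lowest of all 46 libraries. Wnt/Chd against uninjected explants with vehicle gave log2 fold change 1.70 ± 0.28 (SE), adjusted p = 0.0027, and these 2 comparisons share the uninjected vehicle libraries. psme3.S followed, at 8.61, 17.7 and 13.3 CPM in uninjected vehicle, 56.0, 27.5 and 37.0 CPM in uninjected IBET and 31.8, 35.8 and 46.6 CPM in Wnt/Chd vehicle libraries (log2 fold change 1.47 ± 0.35 (SE), adjusted p = 0.01 for IBET in uninjected explants). The IBET effect differed between Wnt/Chd and uninjected explants at stage 17 for 3 of 81 genes, against 12.9% of all genes. They were psme3.L (difference -1.63 ± 0.37 SE, adjusted p = 0.013), psme3.S (-1.39 ± 0.42, adjusted p = 0.047) and psmb9.S, and with the letter as a block 9 passed, 8 of them lower. psme3.L alone passed with each library left out, and the count was 1 without uninjected vehicle library c, uninjected IBET library c, any of the Wnt/Chd vehicle libraries a, b and c, or Wnt/Chd IBET libraries a or b. With library totals alone 9 passed, 1 of them higher, where the median difference of all genes moved from -0.11 to -0.29. At stage 13 the copies parted, psme3.S falling with IBET in uninjected explants from 28.8, 31.8 and 19.5 to 13.6, 9.09 and 8.13 CPM (log2 fold change -1.39 ± 0.34 (SE), adjusted p = 0.01) while psme3.L stood at 116, 137 and 115, then 165, 181 and 136 CPM (log2 fold change 0.38 ± 0.24 (SE), adjusted p = 0.21). The summed epidermal markers of the uninjected vehicle libraries of stage 17 were 26249.5 to 43466 CPM, against 2298 to 13355 CPM with IBET and 11576 to 21123 CPM in Wnt/Chd vehicle libraries, and the part of tissue makeup in this pattern was not tested.

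psme1 and psme2 encode the subunits of the PA28 ring that interferon is known to induce in mammals. psme1.S rose with IBET in 4 of 5 comparisons of stages 13 and 17. It stood at 2.61, 3.63 and 5.83 CPM with vehicle and 9.36, 14.5 and 11.7 CPM with IBET in uninjected explants of stage 17 (log2 fold change 1.45 ± 0.40 (SE), adjusted p = 0.018, 0.063 to 0.064 without any one of vehicle a/b), and at 3.44, 3.35 and 4.64, then 9.34, 16.2 and 14.2 CPM in Wnt/Chd explants (log2 fold change 1.76 ± 0.32 (SE), adjusted p = 0.003). At stage 13 it stood at 8.09, 10.2 and 10.5, then 20.2, 24.1 and 18.6 CPM in uninjected explants (log2 fold change 1.12 ± 0.30 (SE), adjusted p = 0.014, 0.05 to 0.054 without any one of vehicle a/c), and with IBET from the 2-cell stage at 4.68 and 5.64, then 8.07 and 11.5 CPM (log2 fold change 0.94 ± 0.27 (SE), adjusted p = 0.024, 0.085 to 0.17 without any one of vehicle a and IBET b). Every IBET library lay above every vehicle library in these 4 comparisons. With TSA it stood at 7.65 and 8.52, then 9.64 and 9.49 CPM (log2 fold change 0.26 ± 0.18 (SE), adjusted p = 0.23). psme1.L was near the floor of measurement, at 0.316 to 0.594 CPM with vehicle and 1.25 to 2.01 CPM with IBET in Wnt/Chd explants of stage 17 (log2 fold change 1.74 ± 0.47 (SE), adjusted p = 0.016, 0.057 to 0.06 without any one of vehicle c and IBET b/c). psme2.L lay between 0.277 and 4.40 CPM over all libraries and passed once, with TSA at stage 13, at 0.688 and 1.06 CPM with vehicle and 1.94 and 1.90 CPM with TSA (log2 fold change 1.15 ± 0.37 (SE), adjusted p = 0.023, 0.072 to 0.11 without any one of vehicle a and TSA a/b). psmf1.L lay between 4.07 and 27.1 CPM and fell with TSA at stage 13, from 11.7 and 10.5 to 6.21 and 5.94 CPM (log2 fold change -0.86 ± 0.18 (SE), adjusted p = 0.0032).

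The letter of the library went with the level of several proteasome genes. The share of all genes for which it did so is not given here. For psmc5.S and psmd9.L library b was the lowest in all 10 groups of 3 libraries, and for psmc1.S library c was the highest. psmb8.L, an immunoproteasome beta subunit, was another, with library a the lowest in all 10 groups. In uninjected explants it stood at 0.817, 3.39 and 6.58 CPM at stage 9, 0.256, 5.48 and 9.25 CPM with vehicle and 1.21, 10.99 and 22.9 CPM with IBET at stage 13, and 0.279, 2.84 and 2.66, then 0.931, 8.02 and 6.47 CPM at stage 17. In Wnt/Chd explants it stood at 0.917, 2.57 and 6.37 CPM at stage 9, 0.668, 5.58 and 11.4, then 1.19, 12.1 and 25.7 CPM at stage 13, and 0.158, 3.26 and 3.02, then 0.939, 8.17 and 10.5 CPM at stage 17. Within each letter the IBET library was above the vehicle library of the same fate and stage in all 12 pairs. These pairs are not independent, since libraries of the same letter deviated together between groups. The share of all genes that were above in all 12 is not given here. Without the letter in the fit none of the 4 IBET comparisons passed, with log2 fold changes of 1.22, 1.21, 1.32 and 1.58 and adjusted p of 0.39, 0.44, 0.27 and 0.24 in uninjected and Wnt/Chd explants of stage 13 and then of stage 17. With the letter as a block all 4 passed, with adjusted p of 0.017, 0.046, 0.02 and 0.0052. With IBET from the 2-cell stage it rose at stage 13 from 6.75 and 5.78 to 10.2 and 12.6 CPM (log2 fold change 0.88 ± 0.24 (SE), adjusted p = 0.018, 0.073 to 0.12 without any one of vehicle b and IBET b), and with TSA it stood at 3.80 and 7.55, then 5.62 and 9.18 CPM (log2 fold change 0.38 ± 0.37 (SE), adjusted p = 0.38). psmb9.S, its partner in the immunoproteasome, had 2 to 65 reads per library. Its difference in IBET effect at stage 17 (4.28 ± 1.22 SE, adjusted p = 0.039) came with 3, 65 and 60 reads in uninjected vehicle, 13, 9 and 10 in uninjected IBET, 2, 4 and 2 in Wnt/Chd vehicle and 11, 8 and 16 in Wnt/Chd IBET libraries.

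**Figure D5:**
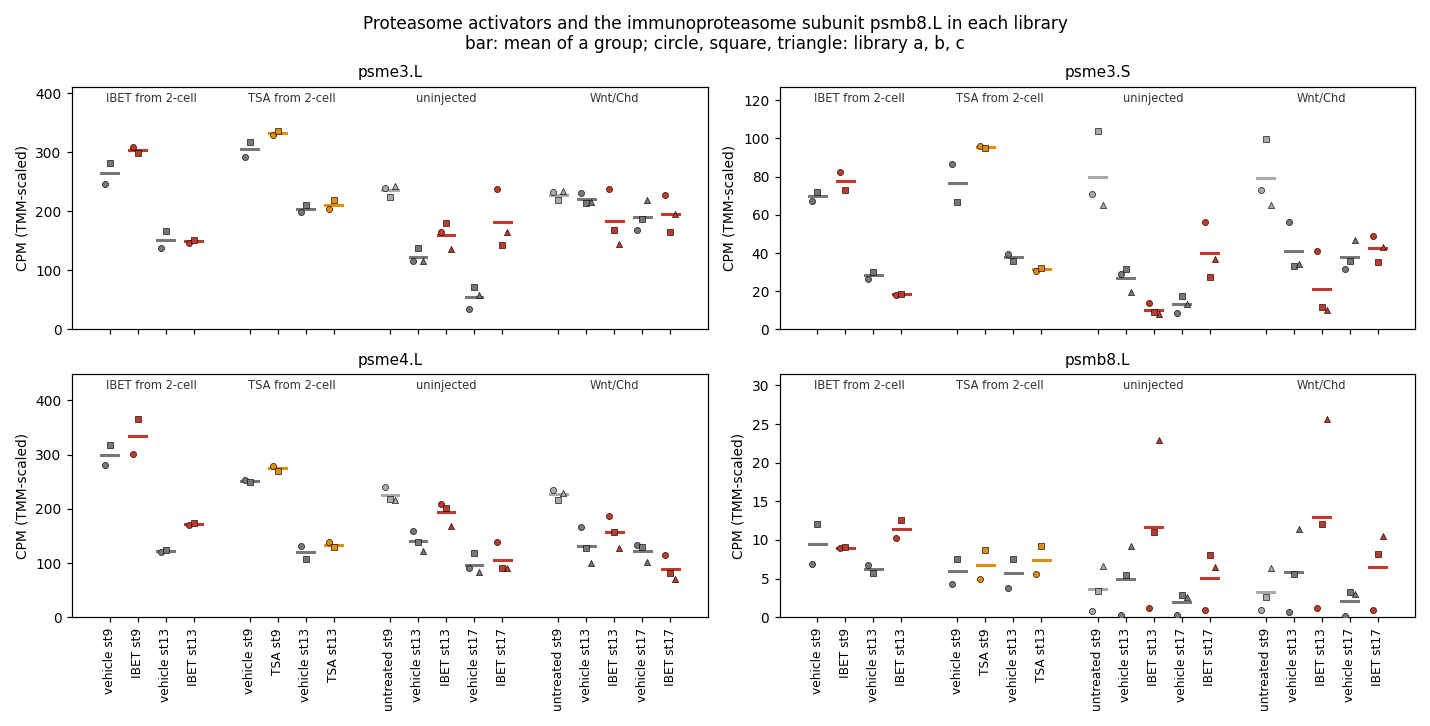
TMM-scaled CPM (y axes, each from 0) of the activator genes psme3.L, psme3.S and psme4.L and of the immunoproteasome gene psmb8.L in the 46 libraries, by group along the x axis, with group means as bars and 1 symbol per library (circle a, square b, triangle c) in grey for untreated or vehicle, red for IBET and orange for TSA. psme3.L is lowest in the 3 uninjected vehicle libraries of stage 17, at 34.8, 72.8 and 58.1 CPM, and psmb8.L is lowest in library a of every group of 3.

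The levels of the remaining chaperones over all 46 libraries were as follows. psmg1.L ran over 1.498 to 12.3 CPM at stage 9, 51.2 to 90.5 with vehicle and 16.3 to 56.1 with an inhibitor at stage 13, and 34.6 to 69.9 with vehicle and 45.4 to 61.1 with IBET at stage 17. psmg2.L ran over 11.03 to 19.6 CPM at stage 9, 23.1 to 60.7 with vehicle and 15.5 to 49.9 with an inhibitor at stage 13, and 18.9 to 47.8 with vehicle and 23.0 to 49.2 with IBET at stage 17. psmg3.L ran over 0.456 to 1.30 CPM at stage 9, 4.31 to 8.68 with vehicle and 0.761 to 4.10 with an inhibitor at stage 13, and 4.44 to 7.71 with vehicle and 3.495 to 4.52 with IBET at stage 17. For these 3 chaperones of the alpha ring every vehicle library of stage 13 was above every library of stage 9, while for psmg4.L the ranges overlapped. The share of all genes without such overlap is not given here. psmg4.L ran over 0.0413 to 0.473 CPM at stage 9, 0.344 to 4.11 with vehicle and 0.148 to 0.867 with an inhibitor at stage 13, and 1.11 to 4.69 with vehicle and 0.410 to 1.32 with IBET at stage 17. psmd5.L ran over 9.81 to 22.6 CPM at stage 9, 19.4 to 52.5 with vehicle and 6.56 to 29.7 with an inhibitor at stage 13, and 27.2 to 42.8 with vehicle and 17.1 to 25.0 with IBET at stage 17. psmd9.L ran over 0.878 to 2.71 CPM at stage 9, 1.76 to 4.18 with vehicle and 1.08 to 3.84 with an inhibitor at stage 13, and 3.99 to 8.89 with vehicle and 1.70 to 4.98 with IBET at stage 17. For both copies of psmd9 and of psmd10, chaperones of the cap base, the ranges of stage 9 and of stage 13 with vehicle overlapped. psmd9.S ran over 2.36 to 5.12 CPM at stage 9, 1.93 to 4.55 with vehicle and 4.81 to 12.6 with an inhibitor at stage 13, and 3.83 to 6.19 with vehicle and 3.07 to 7.31 with IBET at stage 17. psmd10.L ran over 9.92 to 17.1 CPM at stage 9, 5.65 to 19.3 with vehicle and 15.99 to 38.0 with an inhibitor at stage 13, and 4.17 to 8.30 with vehicle and 5.76 to 17.97 with IBET at stage 17. psmd10.S ran over 11.99 to 19.2 CPM at stage 9, 6.17 to 17.0 with vehicle and 11.1 to 31.5 with an inhibitor at stage 13, and 2.19 to 9.24 with vehicle and 5.94 to 17.6 with IBET at stage 17. psmd10.S rose with IBET at stage 13 in uninjected explants from 6.81, 9.07 and 11.1 to 15.8, 26.5 and 29.3 CPM (log2 fold change 1.41 ± 0.36 (SE), adjusted p = 0.012, 0.053 without IBET library c), and in explants treated from the 2-cell stage from 7.64 and 7.62 to 12.7 and 18.3 CPM (log2 fold change 1.04 ± 0.24 (SE), adjusted p = 0.01, 0.08 without IBET library b). psmg4.L fell with IBET in Wnt/Chd explants of stage 17 from 4.43, 4.44 and 4.69 to 1.10, 0.480 and 1.32 CPM (log2 fold change -2.27 ± 0.42 (SE), adjusted p = 0.0031), as its other copy did. The 2 genes that encode no part of the proteasome are included in the counts above. psmc3ip.L ran over 0.856 to 2.04 CPM at stage 9, 1.58 to 4.37 with vehicle and 1.43 to 4.34 with an inhibitor at stage 13, and 3.26 to 8.93 with vehicle and 2.62 to 7.04 with IBET at stage 17. psme3ip1.S ran over 25.9 to 37.6 CPM at stage 9, 12.1 to 21.4 with vehicle and 14.97 to 27.7 with an inhibitor at stage 13, and 16.3 to 36.0 with vehicle and 19.6 to 24.1 with IBET at stage 17.

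Genes that work with the proteasome were taken as a separate list of 46 copies, which holds the cap subunits adrm1 and uchl5, the core maturation factor pomp, shuttle factors such as rad23b, the transcription factors nfe2l1 and nfe2l2, the unfoldase vcp with its cofactors, and the ubiquitin genes. All passed the filter. From stage 9 to stage 13, 27, 30, 28 and 22 rose and 12, 13, 8 and 8 fell in the vehicle of the IBET series, the vehicle of the TSA series, uninjected and Wnt/Chd explants, with medians of 0.72, 0.83, 0.91 and 0.90. Of all genes tested 36.4%, 39%, 35.9% and 30.8% rose and 37.2%, 39%, 35.4% and 31.7% fell in the same order, and the partners that rose made up 58.7%, 65.2%, 60.9% and 47.8% of their list. The largest rises by adjusted p included both copies of zfand5, known in mammals to bind and stimulate the proteasome (zfand5.L, log2 fold change 3.27 ± 0.11 (SE), adjusted p = 6e-07 in the vehicle of the TSA series), and the falls nploc4.L, a cofactor of vcp (log2 fold change -3.31 ± 0.15 (SE), adjusted p = 1.5e-06). With inhibitors at stage 13, 14 rose and 12 fell with IBET from the 2-cell stage (30.4% and 26.1% of the list), 13 and 22 with TSA (28.3% and 47.8%), 12 and 11 with IBET in uninjected explants (26.1% and 23.9%) and 2 and 1 in Wnt/Chd explants (6.52% in all). The shares of all genes were 27.4% and 29.3%, 36.9% and 35.8%, 22.9% and 25.2%, and 15.3% in either direction for Wnt/Chd explants. At stage 17, 6 rose and 3 fell in uninjected and 5 and 10 in Wnt/Chd explants, against 22% and 25.7%, and 24.4% and 25.8% of all genes. The ubiquitin gene copy ubb.S rose with IBET in uninjected explants of stage 13 (log2 fold change 2.35 ± 0.29 (SE), adjusted p = 0.00048), and the ubiquitin receptor adrm1.L fell there (log2 fold change -1.64 ± 0.27 (SE), adjusted p = 0.0018) and with IBET from the 2-cell stage (log2 fold change -1.35 ± 0.16 (SE), adjusted p = 0.00079). nfe2l1.L, whose product is known in mammals to drive proteasome genes when proteasome activity drops, also fell in uninjected explants (log2 fold change -1.54 ± 0.26 (SE), adjusted p = 0.0018). With TSA rad23b.S fell (log2 fold change -1.70 ± 0.10 (SE), adjusted p = 4e-06). At stage 17 pomp.S was higher in Wnt/Chd than in uninjected explants (log2 fold change 1.34 ± 0.18 (SE), adjusted p = 0.0012).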

How the data were processed

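RNA sequencing of 46 libraries of X. laevis animal pole explants was analysed from the read counts per gene that the authors deposited. Per the study's methods and processing notes, fastp 0.23.2 was used on the reads, STAR 2.6.0 placed them on a Xenbase genome release and HTSeq 1.99.2 counted them. The annotation version and the strand setting are not given in the sources used here. Of all tabulated reads, 8.97 to 23.6% were not unique, 7.94 to 21.6% fell in no gene and 0.189 to 0.690% were ambiguous, and these were left out of library sizes and tests. Reads that fit both copies of a homeologous pair can fall in the first of these classes. The authors' own tables of fold changes, p-values and scaled values from DESeq2 were not used. No library repeated another: counts of any 2 libraries of a group differed by at least 8.15 times sampling noise (chi-square per degree of freedom).

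Groups came from the sample labels. Genes were kept by filterByExpr (minimum count 10, minimum total 15) in each pair of groups, scaled by TMM and tested with glmQLFTest of edgeR 4.0.16 in R 4.3.3 with adjusted p under 0.05 over all genes, only the 2 groups entering each fit. Differences between effects were contrasts in a fit of 4 groups. Standard errors are the log2 fold change divided by the square root of F. Ratios of homeologous copies were tested with limma 3.58.1 on the log2 ratio with a pseudocount of 0.5. The alternatives were library totals alone, size factors and the test of DESeq2 1.42.0, no low-count filter, the letter of the count column as a block, and leaving out each library. In the edgeR fits libraries were left out only without the block. Letters paired the libraries of the second experiment by a check of the data: libraries with the same letter deviated together, with correlations of 0.13 to 0.90 in every pair of groups of 3. In pairs of groups of 2 libraries these correlations were 0.17 to 0.77. The main fits left this pairing out, so calls and p-values are without it except where a block is named. The fits were tested on simulated data. In each comparison up to 4 genes per direction were named by adjusted p. Genes followed across comparisons, chaperones, activators and homeologous partners were named besides, after their values were seen, and of the partner list up to 4 per comparison. The remaining chaperones are given as ranges over libraries. The genes and lists were chosen with earlier results of these data known. No sequences, coordinates or transcript lengths were used here.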

Additional observations from a re-analysis of the deposited data

Results flagged for a closer look

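The effects of IBET and TSA from the 2-cell stage on stage 13 explants differed, by the interaction test of edgeR, for 10 proteasome genes. This is a smaller share than the 26.4% of all genes tested. The difference of log2 fold changes, IBET minus TSA with its SE, was -1.31 ± 0.33 (adjusted p = 0.015) for psma3.S, -1.13 ± 0.30 (adjusted p = 0.019) for psmc2.S, -0.79 ± 0.22 (adjusted p = 0.026) for psmc2.L and -0.93 ± 0.27 (adjusted p = 0.029) for psmb3.S. It was -1.16 ± 0.36 (adjusted p = 0.039) for psmg4.S, -0.89 ± 0.23 (adjusted p = 0.017) for psmg2.L and -0.58 ± 0.17 (adjusted p = 0.029) for psmd12.L. The difference had the other sign for psmb6.L at 0.68 ± 0.18 (adjusted p = 0.017), psmd11.S at 0.61 ± 0.19 (adjusted p = 0.043) and psmd3.S at 0.61 ± 0.20 (adjusted p = 0.049). None of the 10 passed with every library left out in turn.

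The effects of IBET from stage 9 at stage 17 differed between Wnt/Chd and uninjected explants, by the same test, for 3 genes. This share is also below that of all genes tested, 12.9%. The difference, Wnt/Chd minus uninjected, was -1.63 ± 0.37 (adjusted p = 0.013) for psme3.L, -1.39 ± 0.42 (adjusted p = 0.047) for psme3.S and 4.28 ± 1.22 (adjusted p = 0.039) for psmb9.S. psme3.L passed with every library left out, and psme3.S and psmb9.S reached adjusted p of 0.12 and 0.1. Groups held 2 or 3 libraries, too few to test a single library as an outlier.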

How the results depend on the processing

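Numbers of called proteasome genes stayed within 1.5 times of those reported with the size factors of DESeq2 in all 21 comparisons, and the alternatives below list every other change. The cause of a change was not tested. With library totals alone the counts became 49 for Wnt/Chd against uninjected at stage 17, 12 and 4 for stage 17 against 13 in uninjected and Wnt/Chd explants, 19 for the IBET minus TSA effect at stage 13 and 9 for the difference in IBET effect at stage 17. Without the low-count filter they became 1 for IBET at stage 9, 0 for Wnt/Chd against uninjected at stage 13 and 11 for stage 17 against 13 in uninjected explants. With the test of DESeq2 they became 1 for IBET at stage 9, 10 for IBET in Wnt/Chd explants of stage 13, 12 for stage 17 against 13 in Wnt/Chd explants, and 1 and 7 for the difference in IBET effect at stages 13 and 17. With the letter as a replicate block they became 2 for IBET and 2 for TSA at stage 9, 19 and 31 for IBET in Wnt/Chd explants of stages 13 and 17, 7 and 41 for Wnt/Chd against uninjected at those stages, 31 and 11 for stage 17 against 13 in uninjected and Wnt/Chd explants, 18 for the IBET minus TSA effect at stage 13 and 9 for the difference in IBET effect at stage 17. At stage 9 psmg1.L passed with the block, with IBET and with TSA (adjusted p = 7.1e-05 and 2.9e-05), in groups of 2 libraries. What a letter stands for is not given in the labels. Libraries of the same letter deviated together there, with correlations of 0.77 in the IBET and 0.75 in the TSA comparison. The block moved no other count by over 1.5 times.

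With 1 library left out, counts ran over 15 to 30 for IBET from the 2-cell stage and 29 to 39 for TSA at stage 13, 15 to 37 and 0 to 20 for IBET from stage 9 in uninjected and Wnt/Chd explants of stage 13, 7 to 18 and 10 to 25 at stage 17, 0 to 1 and 15 to 19 for Wnt/Chd against uninjected at stages 13 and 17, 49 to 57, 57 to 64, 57 to 64 and 61 to 70 for stage 13 against 9 in the vehicle of the IBET series, the vehicle of the TSA series, uninjected and Wnt/Chd explants, 2 to 16 and 0 to 13 for stage 17 against 13 in uninjected and Wnt/Chd explants, 1 to 6 for the IBET minus TSA effect at stage 13 and 1 to 3 for the difference in IBET effect at stage 17. The 5 comparisons with no call had none with any library left out. A group left with 1 library was assumed to vary like the other group of the fit. Counts of changed homeologous pairs ran over 9 to 10, 8 to 13, 11 to 15 and 9 to 10 in the 4 series.

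Of 2725 values of single named genes under an alternative, 2412 kept their direction and side of the threshold, 253 lost and 53 gained the call, and 7 changed sign, each under library totals alone. These were, with TSA at stage 13, psmc2.L (0.22), psmc2.S (0.50) and psme3.S (0.34). From stage 9 to stage 13, they were psma1.L (-0.50 in the vehicle of the TSA series and -0.22 in uninjected explants) and psma6.L (-0.71 and -0.72). psmb11.L, psmb7.2.L, psmb7.2.S and psmg3.S had too few reads to pass the filter, and the cause of this was not tested. Groups of 2 or 3 libraries left room for changes that the tests could not call.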
